A study of Mus musculus with 4 samples.

Results

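Transcripts of 10 surfactant, lamellar body and lung epithelial genes were examined in RNA of cells sorted from mouse lungs as group 2 innate lymphoid cells (ILC2s). The genes were *Sftpc*, *Sftpb*, *Sftpa1*, *Sftpd*, *Abca3*, *Napsa*, *Lamp3*, *Epcam*, *Ager* and *Scgb1a1*. They were chosen by name, from what they are known to do in the lung, with no threshold on their values, and they are 10 of the 49315 genes counted. The 4 groups were WT C57BL/6 mice given PBS (PBS-WT), *Hps1*-/- mice given PBS (PBS-HPS1), WT mice given bleomycin (BLEO-WT) and *Hps1*-/- mice given bleomycin (BLEO-HPS1), with 1 library per group. Bleomycin is a drug that injures the lung and is used to bring on fibrosis. The methods describe an intratracheal and an intraperitoneal bleomycin model and do not say which of them gave the sequenced cells, how old those mice were or how many lungs were pooled. Cells were enriched for innate lymphoid cells, sorted as Lineage-Thy1.2+ICOS+T1/ST2+ and cultured with IL-2 in all 4 groups before RNA was extracted. The Lineage antibodies were to CD3, CD11b, CD45R/B220, Ly76, Ly6G and Ly6C, none of them an epithelial protein, and the methods state a high purity for the sort.

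Surfactant is the film of phospholipid and protein that keeps alveoli from collapsing. It is made by alveolar type 2 cells, which pack it into lamellar bodies and release it into the airspace. Lamellar bodies belong to the lysosome-related organelles. *Hps1* encodes a subunit of the BLOC-3 complex, which takes part in building these organelles, and lungs without it are known for enlarged lamellar bodies in type 2 cells. ILC2s are lymphocytes of the airway and lung and are not known to make surfactant.

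Libraries held 72513619 to 87638154 reads. Levels are given as CPM, the counts of a gene per 1000000 reads of the TMM-scaled library size, and 3 reads correspond to 0.0303 to 0.0475 CPM. *Hps1* itself was at 38.3 CPM in PBS-WT, 16.6 CPM in PBS-HPS1, 48.4 CPM in BLEO-WT and 21.3 CPM in BLEO-HPS1, lower in both *Hps1*-/- libraries. The genes of the sort markers were counted in every library. *Thy1* was at 206 to 551 CPM, *Icos* at 32.1 to 79.9 CPM and *Il1rl1*, which encodes T1/ST2, at 23.8 to 40.9 CPM. In PBS-WT, *Sftpc* at 816 CPM stood above all of these 3 genes, and in BLEO-HPS1, at 185 CPM, it stood below *Thy1* only.

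The promoters of 4 members are shown because their genes behaved differently between libraries: *Sftpb* and *Sftpa1* kept to the level of *Sftpc*, *Lamp3* stood further below it with bleomycin, and *Epcam* is a general epithelial gene. Each is the 250 bases before the RefSeq start of the gene in GRCm38.p6, read 5' to 3' on the strand of the gene. Capitals mark matches on either strand to CTCAAG, a core of sites known for the lung transcription factor NKX2-1, and to TGTTTNC, a core of forkhead sites. The windows lie at chr6:72304360-72304609 on the plus strand for *Sftpb*, chr14:41131538-41131787 on the plus strand for *Sftpa1*, chr16:19706366-19706615 on the minus strand for *Lamp3* and chr17:87635729-87635978 on the plus strand for *Epcam*. In the *Sftpa1* and *Lamp3* windows the last few bases lie in the annotated first exon of the gene.
Sftpb: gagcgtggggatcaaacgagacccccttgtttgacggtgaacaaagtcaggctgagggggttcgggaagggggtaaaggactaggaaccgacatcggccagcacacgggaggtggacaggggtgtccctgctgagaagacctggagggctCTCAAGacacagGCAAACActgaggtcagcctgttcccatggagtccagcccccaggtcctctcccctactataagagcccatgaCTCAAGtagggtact
Sftpa1: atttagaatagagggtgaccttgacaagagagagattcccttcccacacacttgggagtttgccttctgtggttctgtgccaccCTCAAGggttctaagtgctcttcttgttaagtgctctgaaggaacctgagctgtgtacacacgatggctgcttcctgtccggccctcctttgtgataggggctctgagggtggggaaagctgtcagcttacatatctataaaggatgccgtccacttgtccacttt
Lamp3: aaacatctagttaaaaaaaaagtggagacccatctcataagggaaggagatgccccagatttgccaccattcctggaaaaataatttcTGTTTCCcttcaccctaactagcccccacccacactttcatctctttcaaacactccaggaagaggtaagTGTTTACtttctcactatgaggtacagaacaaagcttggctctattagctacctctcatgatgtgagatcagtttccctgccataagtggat
Epcam: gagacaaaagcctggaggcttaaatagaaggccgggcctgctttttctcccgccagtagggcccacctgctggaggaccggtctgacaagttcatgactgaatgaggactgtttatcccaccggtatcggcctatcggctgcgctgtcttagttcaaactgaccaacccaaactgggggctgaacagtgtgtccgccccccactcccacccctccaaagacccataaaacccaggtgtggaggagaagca

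*Sftpb* held 2 matches to CTCAAG and 1 to TGTTTNC, *Sftpa1* held 1 to CTCAAG, *Lamp3* held 2 to TGTTTNC, and *Epcam* held neither. No match overlapped another. Of 32851 mouse promoters of the same length, 13.3% held CTCAAG and 17.8% held TGTTTNC, so a match to either is common and is given only as a description. Promoters were found for 6 of the 10 members. *Abca3* and *Ager* held no match, and *Sftpc*, *Sftpd*, *Napsa* and *Scgb1a1* were not matched.

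All 10 members were counted in every library, and all 10 reached the 1 CPM in at least 1 library that a gene needed to be compared. Together they held 0.166% of reads in PBS-WT and 0.141% in PBS-HPS1, and with bleomycin 0.0914% in WT and 0.0759% in *Hps1*-/-. *Sftpc*, *Sftpb*, *Sftpa1* and *Sftpd* alone held 0.119%, 0.0964%, 0.0454% and 0.0214% in the same order. Surfactant protein transcripts were thus at their highest in the PBS-WT library and at their lowest in the BLEO-HPS1 library. Of the 10 members, 6 were highest in PBS-WT and 7 were lowest in BLEO-HPS1. These counts are a description only, since the like shares over all genes compared were not counted. A lower level in such a library could come from fewer cells of a type or from less RNA per cell, and these cannot be told apart.

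**Figure D1:**
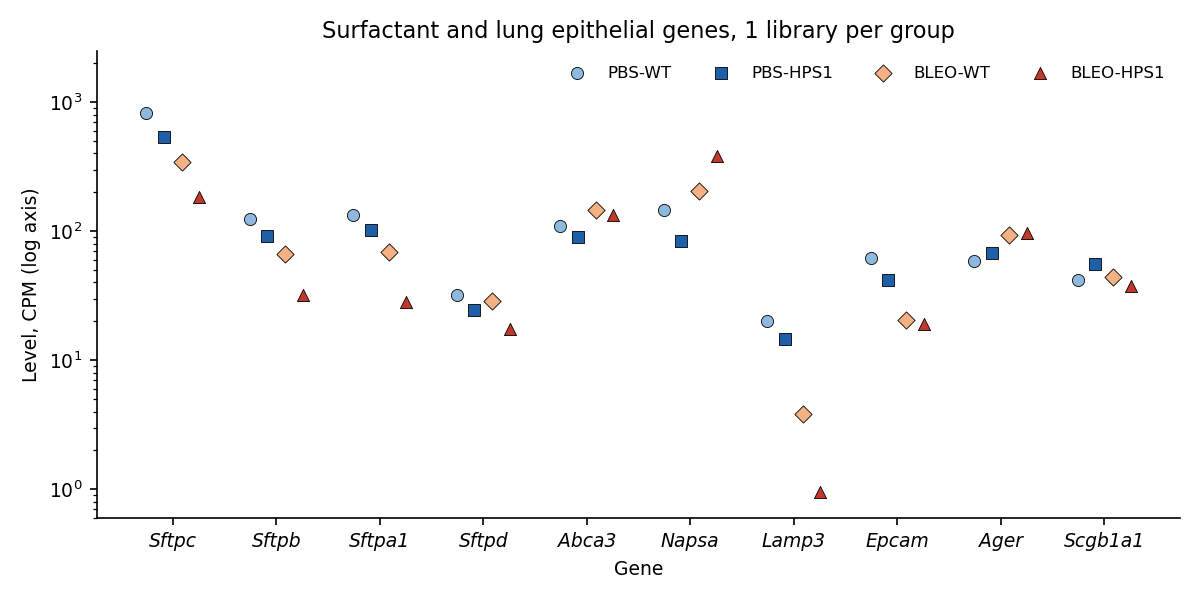
Level of each of the 10 genes in CPM on a log axis, with 1 point per library and group and no replicates. The 4 libraries descend in the order PBS-WT, PBS-HPS1, BLEO-WT, BLEO-HPS1 for Sftpc, from 816 to 185 CPM, while Napsa is highest in BLEO-HPS1 at 381 CPM.

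*Sftpc* encodes surfactant protein C, a small hydrophobic peptide that is made by type 2 cells and used as their defining marker. The gene (ENSMUSG00000022097) is on chromosome 14 of GRCm38, minus strand, from 70520949 to 70524081. It was at 816 CPM in PBS-WT, 538 CPM in PBS-HPS1, 343 CPM in BLEO-WT and 185 CPM in BLEO-HPS1, from 63628, 53320, 26881 and 11679 reads. Per kilobase of annotated exon, *Sftpc* was the highest of the 10 members in every library. In CPM without length, *Napsa* stood above it in BLEO-HPS1, at 381 CPM. Among 14820 genes ranked by CPM per kilobase it took place 37 in PBS-WT, place 42 in PBS-HPS1, place 165 in BLEO-WT and place 376 in BLEO-HPS1. With bleomycin it was 2.38-fold lower in WT (log2 ratio -1.25, 95% interval -1.27 to -1.23) and 2.91-fold lower in *Hps1*-/- (-1.54, -1.57 to -1.51). The intervals here and below are exact binomial intervals on the reads. They cover counting error only, since PCR copies of a molecule are counted as separate reads and the spread between mice was not measured. A correction for the GC content and length of transcripts took the *Hps1*-/- ratio to -2.54.

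*Sftpb* encodes surfactant protein B, the other hydrophobic surfactant protein, without which lamellar bodies do not form properly. The gene lies on the plus strand of chromosome 6 from 72304610 to 72314371. It was at 124 CPM in PBS-WT, 91.3 CPM in PBS-HPS1, 67.0 CPM in BLEO-WT and 31.8 CPM in BLEO-HPS1, the same order of libraries as for *Sftpc*. Its log2 ratio with bleomycin was -0.89 in WT (-0.94 to -0.84) and -1.52 in *Hps1*-/- (-1.59 to -1.45). After the correction these were -1.14 and -2.48.

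*Sftpa1* and *Sftpd* encode collectins, water-soluble surfactant proteins that bind microbial sugars. They lie near each other on chromosome 14, *Sftpa1* from 41131782 to 41136452 on the plus strand and *Sftpd* from 41172214 to 41185149 on the minus strand. *Sftpa1* was at 132 CPM in PBS-WT, 102 CPM in PBS-HPS1, 69.1 CPM in BLEO-WT and 28.1 CPM in BLEO-HPS1. Its log2 ratio of bleomycin to PBS was -0.94 in WT (-0.99 to -0.89) and -1.86 in *Hps1*-/- (-1.93 to -1.78), the latter -1.26 after the correction. *Sftpd* was at 31.9, 24.7, 28.8 and 17.3 CPM in the same order, a narrower range than for the other surfactant protein genes. Its log2 ratios were -0.15 in WT (-0.23 to -0.06) and -0.51 in *Hps1*-/- (-0.61 to -0.41). As scaled, the neighbouring collectin genes differed in how far bleomycin and PBS libraries were apart. After the correction they were closer, with *Sftpd* at -0.89 in *Hps1*-/-.

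The genes of the lamellar body did not share a direction. *Abca3* encodes the transporter that loads phospholipid into lamellar bodies and lies on the plus strand of chromosome 17 from 24351950 to 24410201. It was at 109 CPM in PBS-WT, 90.2 CPM in PBS-HPS1, 145 CPM in BLEO-WT and 134 CPM in BLEO-HPS1, higher in both bleomycin libraries. The log2 ratios were 0.41 in WT (0.37 to 0.45) and 0.57 in *Hps1*-/- (0.52 to 0.61), but scaling by total counts turned the latter to -0.08. An antisense gene, *D330041H03Rik*, shares 914 bases of exon with *Abca3*. Its reads came to 1.21% to 3.51% of those of *Abca3*, and the sources used here do not say whether counting used the strand.

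*Napsa* encodes napsin A, an aspartic protease that takes part in the processing of surfactant protein B and is made by type 2 cells. In mice it is also expressed by dendritic cells. The gene lies on the plus strand of chromosome 7 from 44572380 to 44586862. It was at 146.0 CPM in PBS-WT, 83.8 CPM in PBS-HPS1, 206 CPM in BLEO-WT and 381 CPM in BLEO-HPS1. The bleomycin libraries were above both PBS libraries, and BLEO-HPS1 was the highest of all. The ratio of bleomycin to PBS was 1.41-fold in WT (log2 0.49, 0.46 to 0.53) and 4.55-fold in *Hps1*-/- (2.19, 2.15 to 2.22). The correction took the latter to 1.36. The antisense gene *Gm15396* shares 502 bases of exon with *Napsa*, and its reads came to at most 0.181% of those of *Napsa*.

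*Lamp3* encodes a membrane glycoprotein of lysosomes and lamellar bodies, also known as DC-LAMP. The gene lies on the minus strand of chromosome 16 from 19653378 to 19706375. It was at 20.1 CPM in PBS-WT, 14.6 CPM in PBS-HPS1, 3.85 CPM in BLEO-WT and 0.950 CPM in BLEO-HPS1, the last from 60 reads. Its range of 21.2-fold was the widest of the 10 members. With bleomycin it was 5.19-fold lower in WT (log2 -2.38, -2.57 to -2.21) and much lower still in *Hps1*-/- (-3.91, -4.34 to -3.57). *Lamp3* transcripts have the lowest GC content of the 10 members, 38.7%, and after the correction the ratios were -1.67 and -2.56.

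*Epcam* encodes an adhesion molecule present on most epithelial cells and lies on the plus strand of chromosome 17 from 87635979 to 87651129. It was at 61.8 CPM in PBS-WT, 41.5 CPM in PBS-HPS1, 20.6 CPM in BLEO-WT and 19.2 CPM in BLEO-HPS1. Both bleomycin libraries were below both PBS libraries, with log2 ratios of -1.58 in WT (-1.67 to -1.50) and -1.11 in *Hps1*-/- (-1.21 to -1.02). BLEO-HPS1 and BLEO-WT differed by a log2 ratio of -0.11, whose counting interval of -0.21 to 0.00 reached 0.

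*Ager* encodes the receptor RAGE, which is abundant on the thin type 1 cells that line the alveolus. It lies on the plus strand of chromosome 17 from 34597862 to 34600936. It was at 58.4 CPM in PBS-WT, 68.1 CPM in PBS-HPS1, 93.8 CPM in BLEO-WT and 96.1 CPM in BLEO-HPS1, the reverse order of libraries to *Sftpc*. The log2 ratios of bleomycin to PBS were 0.68 in WT (0.63 to 0.74) and 0.50 in *Hps1*-/- (0.45 to 0.55). The sign of the *Hps1*-/- ratio did not hold, since it was -0.40 after the correction and was below 0 with total counts too. The same was true of BLEO-HPS1 against BLEO-WT, at 0.04 (-0.01 to 0.08) and -0.54 after the correction.

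*Scgb1a1* encodes the secretoglobin of club cells, the secretory cells of the small airways. It lies on the minus strand of chromosome 19 from 9083636 to 9087958. It was at 41.8 CPM in PBS-WT, 55.8 CPM in PBS-HPS1, 44.2 CPM in BLEO-WT and 37.4 CPM in BLEO-HPS1, the narrowest range of the 10 members, at 1.49-fold from lowest to highest. Its log2 ratio with bleomycin was 0.08 in WT (0.01 to 0.15), which turned to -0.18 with total counts, and -0.57 in *Hps1*-/- (-0.65 to -0.51), which became -1.34 after the correction.

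Per kilobase of exon, *Sftpc* at 789 CPM per kilobase stood above *Scgb1a1* at 87.8 and *Sftpb* at 63.2 in PBS-WT. In BLEO-HPS1, *Sftpc* at 179 CPM per kilobase was followed by *Napsa* at 143. *Lamp3* was the lowest in each library, at 5.99 CPM per kilobase in PBS-WT and 0.283 CPM per kilobase in BLEO-HPS1. Most neighbours in the order had counting intervals that did not overlap. The exceptions were *Epcam* and *Ager* in PBS-WT, and *Ager* and *Napsa* and also *Sftpd* and *Abca3* in PBS-HPS1. These intervals do not cover the choice of length. Over all annotated exons it was 1034 bases for *Sftpc* and 2660 for *Napsa*, against 792 and 1560 in the longest transcript. An order by the longest transcript was not made, and the places of *Sftpc* and *Napsa* in BLEO-HPS1 depend on this choice.

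The first comparison asks how *Hps1*-/- and WT libraries differ without injury. Of the 10 members, 8 were lower and 2 higher in PBS-HPS1 than in PBS-WT, and 0 passed the threshold of 2-fold in either direction. Over all 14840 genes compared, 2.16% were higher by 2-fold or more and 3.11% were lower by as much. The log2 ratios of the members ran from -0.80 for *Napsa* to 0.42 for *Scgb1a1*, with a median of -0.41 against -0.19 over all genes compared. *Ager*, at 0.22, was the other member above 0.

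The second comparison asks what bleomycin does in WT mice. *Sftpc*, *Lamp3* and *Epcam* were at least 2-fold lower in BLEO-WT than in PBS-WT, and 0 members were 2-fold higher. Over all genes compared, 8.22% were that much lower and 5.28% that much higher. The median log2 ratio was -0.52 for the members and 0.09 for all genes compared. Scaled by total counts, *Sftpb* and *Sftpa1* passed the threshold too, which made 5 members.

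In *Hps1*-/- mice, 5 members were at least 2-fold lower in BLEO-HPS1 than in PBS-HPS1 (*Sftpc*, *Sftpb*, *Sftpa1*, *Lamp3* and *Epcam*), and *Napsa* was higher. The background of this pair of libraries was wide, with 19.6% of all genes compared at least 2-fold lower and 26.2% at least 2-fold higher. The median log2 ratio was -0.84 for the members and 0.25 for all genes compared.

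Between the bleomycin libraries, *Sftpb*, *Sftpa1* and *Lamp3* were at least 2-fold lower in BLEO-HPS1 than in BLEO-WT, and 0 members were 2-fold higher. Over all genes compared, 10.3% were that much lower and 6.72% that much higher. *Sftpc* was just short of the threshold, at a log2 ratio of -0.89 (-0.92 to -0.86), and passed it at -1.58 after the correction. *Sftpa1* went from -1.29 to -0.94 with the correction and so no longer passed. The medians were -0.49 for the members and -0.04 for all genes compared. These comparisons share libraries, so their ratios are not independent of each other.

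**Figure D2:**
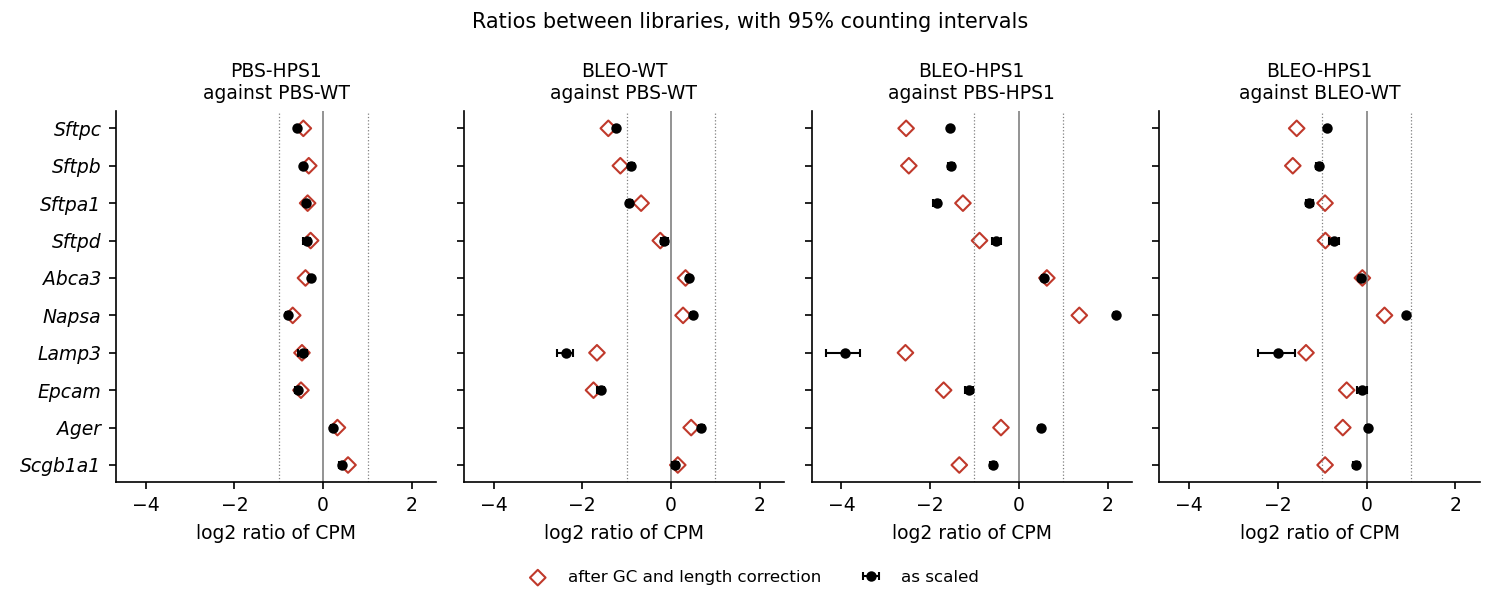
Log2 ratio of CPM for each of the 10 genes in the 4 comparisons, with black points and bars for the ratio and its 95% counting interval and red diamonds for the ratio after the GC and length correction; dotted lines mark 2-fold. Among the black points, Lamp3 lies farthest to the left in each comparison with a bleomycin library, and Napsa alone passes 2-fold to the right, at a log2 ratio of 2.19 in BLEO-HPS1 against PBS-HPS1.

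The ratio of bleomycin to PBS was below 0 in both genotypes for 6 members, above 0 in both for 3 members (*Abca3*, *Napsa* and *Ager*), and opposite in sign for *Scgb1a1*. The difference between genotypes, the log2 ratio in *Hps1*-/- minus that in WT, was largest for *Napsa* at 1.69 (1.64 to 1.74) and *Lamp3* at -1.53 (-1.95 to -1.12). It was -0.92 for *Sftpa1*, -0.63 for *Sftpb* and -0.29 for *Sftpc*. The correction changed this order. From corrected ratios the difference was -1.50 for *Scgb1a1*, -1.34 for *Sftpb*, -1.13 for *Sftpc*, 1.09 for *Napsa*, -0.89 for *Lamp3* and -0.59 for *Sftpa1*. The median over the 10 members was -0.33, and without replicates the difference has no test.

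Setting the reads of a gene against those of *Sftpc* in the same library gives the make-up of the surfactant transcripts without library scaling. For every 100 reads of *Sftpc* there were 15.2 reads of *Sftpb* in PBS-WT, 17.0 reads in PBS-HPS1, 19.5 reads in BLEO-WT and 17.2 reads in BLEO-HPS1. *Sftpa1* gave 16.2, 18.9, 20.2 and 15.2 reads. The highest library was 1.28-fold above the lowest for *Sftpb* and 1.32-fold for *Sftpa1*, while *Sftpc* itself changed 4.42-fold in CPM. As counted, these genes therefore kept nearly the same proportions in the 4 libraries. After the correction, the *Hps1*-/- ratio of bleomycin to PBS was -2.54 for *Sftpc*, -2.48 for *Sftpb* and -1.26 for *Sftpa1*, so that *Sftpb* still kept to *Sftpc* and *Sftpa1* did not.

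Of the other members, all but *Epcam* moved further from *Sftpc* as counted. *Sftpd* went from 3.91 reads per 100 of *Sftpc* in PBS-WT to 9.37 reads in BLEO-HPS1. *Napsa* had 17.9, 15.6, 60.0 and 206 reads in the order PBS-WT, PBS-HPS1, BLEO-WT, BLEO-HPS1, a 13.3-fold range. *Abca3* went from 13.4 to 72.3 and *Ager* from 7.15 to 52.0 between PBS-WT and BLEO-HPS1, and *Scgb1a1* from 5.12 to 20.3. *Lamp3* went the other way, from 2.72 reads in PBS-HPS1 to 0.514 reads in BLEO-HPS1 (0.392 to 0.662). After the correction its *Hps1*-/- ratio of bleomycin to PBS was -2.56, beside -2.54 for *Sftpc*. *Epcam* stayed between 6.01 and 10.4, a 1.72-fold range.

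**Figure D3:**
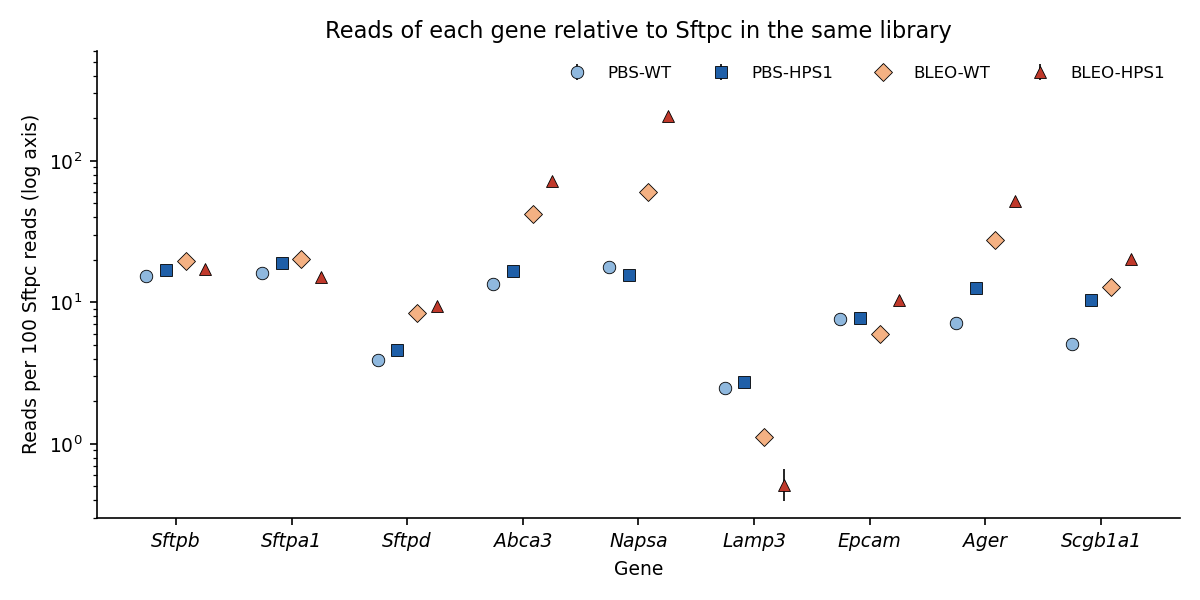
Reads of each gene per 100 reads of Sftpc in the same library, on a log axis, with 95% counting intervals as bars where they exceed the symbol; each point is 1 library. The points of Sftpb and Sftpa1 lie between 15.2 and 20.2 in all 4 libraries, while those of Napsa spread from 15.6 to 206.

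Genes with a course across the 4 libraries like that of *Sftpc* were sought by the distance between centred log2 CPM values, over 4 libraries only. The nearest outside the members were *Zfp992*, *Slfn9*, *Zfp128*, *St8sia4*, *Zfp119b*, *mt-Nd5*, *Zfp78*, *9830107B12Rik*, *Negr1* and *Tspan2*, at distances of 0.07 to 0.18. *Sftpb* was in place 33 of all genes compared and *Sftpa1* in place 87. They include genes that are not known for the lung epithelium, such as the mitochondrial gene *mt-Nd5*. The search used uncorrected levels, and the GC content of these 10 genes was 36.1% to 47.4%, against 54.8% for *Sftpc*. For *Napsa*, a search added after its values were seen gave *Ddr1*, *Lmo1*, *Gm29668*, *Chaf1b*, *Gins2*, *Tmem160*, *Tpgs1*, *Atox1*, *H2-DMa* and *Cd40*. The nearest, *Ddr1*, was at 23.7 CPM in PBS-WT, 13.4 CPM in PBS-HPS1, 34.3 CPM in BLEO-WT and 62.2 CPM in BLEO-HPS1. *H2-DMa*, in place 9, takes part in loading peptides on MHC class II and was at 281, 172, 443 and 808 CPM in the same order.

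Of 21 other genes of type 2 cells, 8 were at least 2-fold lower and 1 higher with bleomycin in WT, and 9 were lower and 5 higher in *Hps1*-/-. Where 4 levels follow each other, here and below, they are those of PBS-WT, PBS-HPS1, BLEO-WT, BLEO-HPS1, and counts of a list stand against the shares over all genes given above. The medians of the type 2 list were -0.50 in WT and -0.56 in *Hps1*-/-, the latter -0.07 after the correction, with 1 lower in PBS-HPS1 than in PBS-WT. Between the bleomycin libraries 6 were lower and 1 higher in BLEO-HPS1. The 4 with the highest mean level were *Ctsh*, *Cd36*, *Fasn* and *Scd1*. *Ctsh*, a cathepsin of lysosomes, was at 365 CPM in PBS-WT, 243 CPM in PBS-HPS1, 788 CPM in BLEO-WT and 910 CPM in BLEO-HPS1. *Scd1*, a fatty acid desaturase, was at 102, 76.3, 66.5 and 48.4 CPM. *Cd36*, a fatty acid transporter, was at 238, 201, 196 and 90.5 CPM, and *Fasn*, fatty acid synthase, at 130, 108, 160 and 222 CPM. The next 4 genes, each lower with bleomycin by more than 2-fold in both genotypes, were picked after their values were seen. *Slc34a2*, the phosphate carrier of type 2 cells, was at 63.6, 47.2, 25.9 and 7.65 CPM. *Cxcl15*, a chemokine of the lung epithelium also called lungkine, was at 52.6, 39.1, 17.8 and 6.03 CPM, and *Hc*, complement component C5, at 33.8, 27.6, 5.55 and 1.80 CPM. *Egfl6*, a secreted protein with EGF repeats, was at 6.13, 4.03, 1.15 and 0.427 CPM. These 4 genes had the same order of libraries as *Sftpc*, but they were chosen for being lower with bleomycin, so this was largely fixed by the choice. The share of all genes compared with that order was not counted. *Ctsh* had the opposite course with bleomycin.

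Of 15 genes of surfactant lipid synthesis, 0 passed 2-fold in either direction with bleomycin in WT, and 3 were higher and 0 lower in *Hps1*-/-, where the median was 0.21. These 3 are a smaller share than that of all genes compared. With total counts 0 were higher and 6 lower, and the median was -0.44, beside -0.39 for all genes compared. *Acly*, which makes acetyl-CoA for lipid synthesis, was at 323, 271, 415 and 368 CPM, and *Srebf2*, a regulator of sterol synthesis, at 244, 185, 295 and 409 CPM. Transcription factors of the lung epithelium were mostly low. Of 8 compared, 0 were higher and 2 lower in WT and 1 was higher and 4 lower in *Hps1*-/-. *Nkx2-1* was at 5.21, 4.45, 3.06 and 2.06 CPM, the order of libraries that *Sftpc* had. *Cebpa*, which myeloid cells also express, was at 354, 294, 599 and 591 CPM, and *Id2*, which innate lymphoid cells also express, at 138, 111, 202 and 131 CPM.

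Of 16 other genes of type 1 cells, 3 were higher and 1 lower with bleomycin in WT, and 4 were higher and 4 lower in *Hps1*-/-. *Hopx*, a homeodomain protein of type 1 cells, was at 76.0, 61.8, 126 and 112 CPM. *Pdpn*, podoplanin, was at 9.74 CPM in PBS-WT, 14.9 CPM in PBS-HPS1, 101 CPM in BLEO-WT and 93.1 CPM in BLEO-HPS1. It is known from type 1 cells and also from fibroblastic, lymphatic and some immune cells. *Clic5*, a chloride channel protein, went the other way, at 70.0, 77.6, 55.0 and 30.4 CPM. *Emp2*, the gene of the list with the highest mean, stayed between 108 and 141 CPM.

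Of 18 other genes shared by epithelial cells, 3 were higher and 3 lower in WT and 5 higher and 5 lower in *Hps1*-/-. *Krt19*, a keratin of simple epithelia, was at 251, 203, 54.6 and 60.4 CPM, high in both PBS libraries like *Epcam*. *Spint1*, an inhibitor of serine proteases, was at 48.7, 40.1, 115 and 165 CPM, higher in both bleomycin libraries. *Cdh1*, E-cadherin, was at 67.8, 61.2, 105 and 105 CPM. This list thus had no common direction with bleomycin in either genotype. *Cldn4*, counted as higher in both genotypes, reached 1 CPM only in the bleomycin libraries.

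Airway lists were smaller. Of 9 other club and goblet cell genes compared, 2 were higher and 1 lower with bleomycin in WT and 2 higher and 2 lower in *Hps1*-/-. *Cbr2*, a carbonyl reductase of the airways, was at 54.6, 44.0, 93.0 and 94.6 CPM, and *Aldh1a1*, a retinal dehydrogenase, at 24.5, 30.4, 35.2 and 38.0 CPM. Of 7 ciliated cell genes, 0 were higher and 2 lower in WT, and 2 were higher and 2 lower in *Hps1*-/-. *Tppp3*, a microtubule protein, was at 191, 129, 259 and 306 CPM. *Foxj1*, which defines ciliated cells, was at 1.99 to 2.98 CPM. Of 6 basal cell genes, only *Aqp3* and *Krt5* could be compared, and *Krt5* was at 0.151 to 1.98 CPM. In WT, 1 of these was lower with bleomycin, and in *Hps1*-/- neither passed 2-fold. Both were more than 2-fold lower in PBS-HPS1 than in PBS-WT, *Krt5* by a log2 ratio of -3.50 and *Aqp3* by -1.01.

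Genes of other lung cells were counted beside those of the ILC2s. The 14 alveolar macrophage genes summed to 7213 CPM in PBS-WT, 6362 CPM in PBS-HPS1, 5161 CPM in BLEO-WT and 3230 CPM in BLEO-HPS1, the order of *Sftpc*. Of these, 7 were at least 2-fold lower and 0 higher with bleomycin in WT, and 9 lower and 0 higher in *Hps1*-/-. *Chil3*, a secreted lectin of these macrophages, was at 3926, 3567, 3341 and 1758 CPM, and *Itgax*, which encodes CD11c, at 713, 545, 741 and 767 CPM. Of 14 genes of surfactant clearance, which overlap that list in part, 2 were higher and 2 lower in WT and 2 higher and 5 lower in *Hps1*-/-, and *Abcg1*, which exports cholesterol, was at 868, 686, 487 and 341 CPM and *Lpl*, lipoprotein lipase, at 957, 448, 378 and 176 CPM.

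Dendritic cell genes had no common direction with bleomycin in WT, but their summed level had the same order of libraries as *Napsa*. They summed to 3453 CPM in PBS-WT, 2091 CPM in PBS-HPS1, 5883 CPM in BLEO-WT and 10469 CPM in BLEO-HPS1. Of 15 compared, 1 was higher and 3 lower with bleomycin in WT, and 8 were higher and 1 lower in *Hps1*-/-. *H2-Ab1*, an MHC class II chain, was at 2073, 1072, 3634 and 6406 CPM, and *Cst3*, the protease inhibitor cystatin C, at 899, 567, 1533 and 2896 CPM. *Ccr7*, a chemokine receptor of migrating dendritic cells, was at 170, 215, 270 and 411 CPM, and *Ccl17*, a chemokine of dendritic cells, at 27.0, 21.7, 193 and 283 CPM. Without *H2-Ab1* and *Cst3*, a sum added after the values were seen, the list came to 481, 452, 716 and 1167 CPM. None of the 16 genes listed was at 0 in any library. The part of dendritic cell RNA in the level of *Napsa* was not tested.

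The 14 fibroblast genes summed to 363, 547, 901 and 3859 CPM, and 12 of them were higher with bleomycin in *Hps1*-/- and 6 in WT, with 0 lower in either. Between the bleomycin libraries 11 were higher in BLEO-HPS1. *Col1a1*, a chain of type I collagen, was at 38.2, 75.1, 170 and 982 CPM, and *Col1a2*, its partner chain, at 45.3, 88.8, 152 and 813 CPM. The 14 endothelial genes stayed between 964 and 1192 CPM in sum, with 1 higher and 1 lower in WT and 2 higher and 1 lower in *Hps1*-/-. *Pecam1*, an adhesion molecule of endothelium, was at 182, 172, 176 and 203 CPM, and *Cdh5*, VE-cadherin, at 162, 160, 146 and 174 CPM. The 8 mesothelial genes summed to 20.2 to 26.5 CPM, and of 6 compared 2 were lower in WT and 1 in *Hps1*-/-. *Gpm6a* was at 11.2, 9.32, 5.36 and 4.08 CPM, and *Upk3b*, a uroplakin, at 4.50, 5.93, 4.69 and 4.59 CPM. ILC2 genes summed to 904, 814, 1064 and 1133 CPM, and of 15 compared 2 were higher and 2 lower in WT and 3 higher and 5 lower in *Hps1*-/-. Beside them, the 10 members summed to 1542, 1110, 1021 and 931 CPM, above the ILC2 sum in both PBS libraries and below it in both bleomycin libraries. *Arg1*, arginase 1, which macrophages also express, was at 8.34, 4.59, 387 and 257 CPM. Without *Arg1*, an alternative added after the values were seen, the ILC2 genes summed to 896, 809, 677 and 875 CPM. This was below the members in every library, with *Napsa* kept among the members. *Napsa*, which dendritic cells also express, gave 381 of the 931 CPM of the members in BLEO-HPS1. Such sums depend on the genes listed and do not measure the RNA of cell types against each other. *Thy1*, which fibroblasts also express, was at 551 CPM in BLEO-HPS1. The methods give 22405, 38873, 84166 and 128647 sorted cells in the same order of groups, so the *Sftpc* level descended as the number of cells ascended. The part of other cells' RNA, or of the number of cells, in the levels of the members was not tested.

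**Figure D4:**
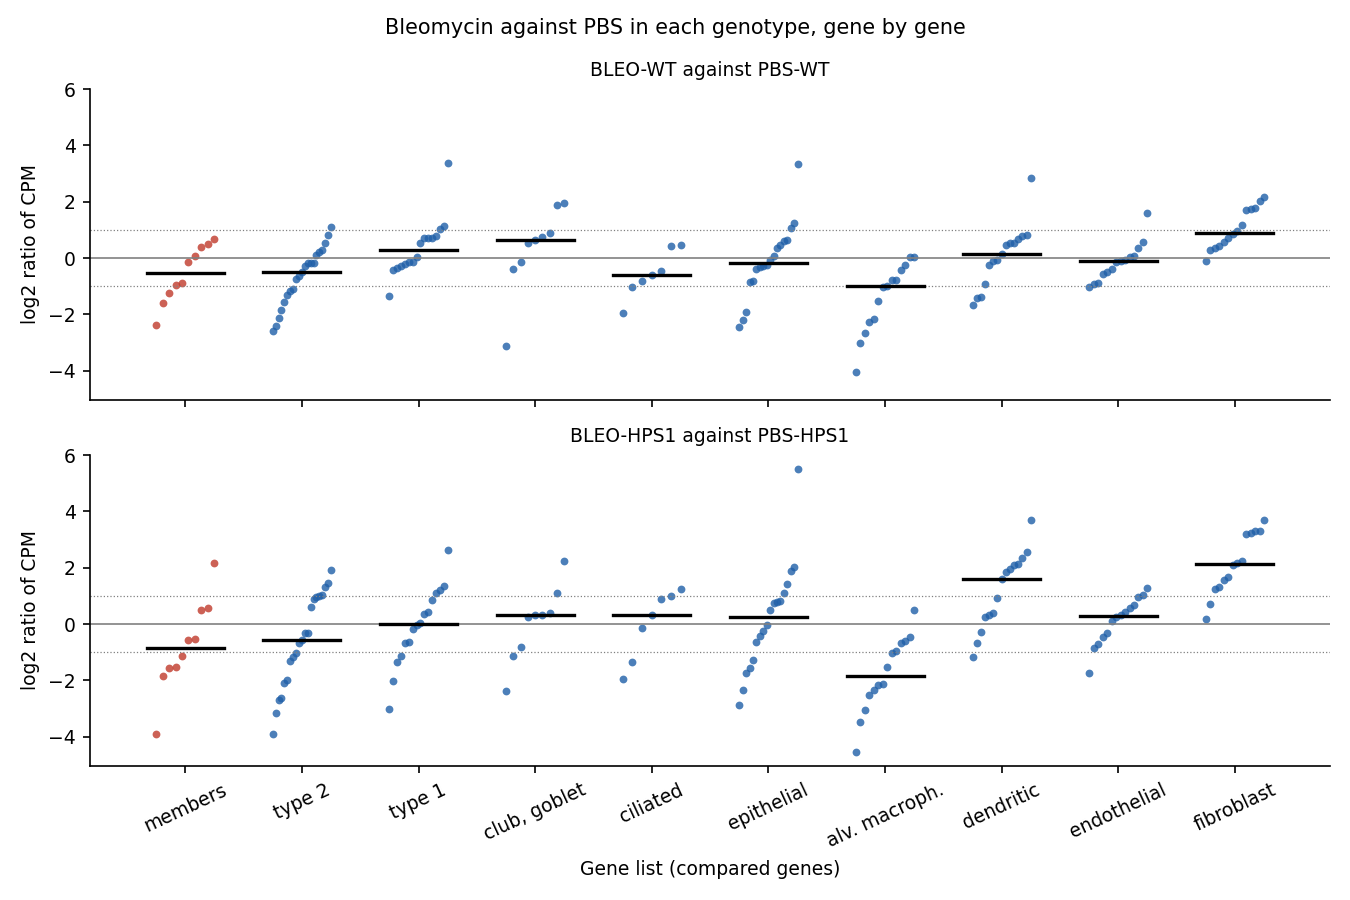
Log2 ratio of bleomycin to PBS in WT (upper panel) and in Hps1-/- (lower panel), with 1 point for each compared gene of a list, the 10 members in red and a black bar at each list's median; dotted lines mark 2-fold. The medians of the members are -0.52 and -0.84, that of the alveolar macrophage genes is -1.82 in the lower panel, and those of the fibroblast genes are 0.91 and 2.14.

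Log2 ratios went with the GC content and the length of transcripts across genes. Over 14813 genes, Spearman's rho of ratio and GC content was 0.43 for bleomycin against PBS in WT, 0.56 for the same in *Hps1*-/-, 0.54 for *Hps1*-/- against WT with bleomycin and -0.07 for *Hps1*-/- against WT with PBS. For transcript length, rho was -0.19, -0.42, -0.40 and 0.29 in the same order of comparisons. Genes are not independent replicates, and these values are descriptions. In BLEO-HPS1 against PBS-HPS1 the correction moved *Lamp3*, at 38.7% GC, from -3.91 to -2.56 and *Sftpb*, at 58.6% GC, from -1.52 to -2.48. The direction of *Sftpc*, *Sftpb*, *Sftpa1*, *Lamp3* and *Epcam* with bleomycin was below 0 with and without the correction in both genotypes.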

How the data were processed

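RNA of sorted and cultured ILC2s was sequenced after SMARTER mRNA library preparation in 4 groups, with 1 library per group. The authors deposited raw counts, as whole reads on each Ensembl gene. Aligner, counter, genome build and any use of strand are not given in the sources used here. Of the identifiers, 49056 were found in GENCODE M21 (GRCm38), which gave positions, exon lengths and GC contents. In the lists, 3 genes were matched by identifier because the table carries an older or different symbol. The members and gene lists were chosen with earlier results of these data known.

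CPM used TMM effective library sizes (edgeR 4.0.16, R 4.3.3), and log2 ratios a prior count of 2. Comparisons took the 14840 genes that reached 1 CPM in some library, and the threshold was 2-fold. With 1 library per group the quasi-likelihood test of edgeR has no residual degrees of freedom and could not be fitted, so no p-value is given. Named genes were the members, the 2 to 4 genes of each list with the highest mean CPM, the 10 nearest to *Sftpc*, *Hps1* and the sort markers. Others are said to have been picked later. The alternatives were DESeq2 1.42.0 size factors, total counts, upper-quartile factors, no filter, prior counts of 0.5 and 10, a filter of 10 reads in every library, a log2 threshold of 2, and a loess fit (span 0.3) that removes the part of a ratio predicted by GC content and length. The steps were tested on simulated data. Promoters are from RefSeq, GRCm38.p6.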

Additional observations from a re-analysis of the deposited data

Results flagged for a closer look

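The log2 ratio of bleomycin to PBS of *Scgb1a1* had opposite signs in the genotypes, 0.08 in WT and -0.57 in *Hps1*-/-. The difference, *Hps1*-/- minus WT, was -0.66, with a counting interval of -0.75 to -0.56. It was not tested, since each group had 1 library, and with total counts the WT ratio was -0.18, so that both signs were negative.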

How the results depend on the processing

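No paired analysis was possible because each group had 1 library and no result comes from a test. At the main settings 0, 3, 6 and 3 members passed 2-fold in PBS-HPS1 against PBS-WT, BLEO-WT against PBS-WT, BLEO-HPS1 against PBS-HPS1 and BLEO-HPS1 against BLEO-WT, and 782, 2003, 6806 and 2527 of all genes compared. With total counts the numbers of members were 0, 5, 8 and 4, and with the GC and length correction 0, 4, 7 and 3. Upper-quartile factors made the last number 2. A log2 threshold of 2 left 1, 2 and 0 members in the last 3 comparisons and 190, 439, 1464 and 284 genes. Without a filter 8710, 8747, 17659 and 7657 genes passed. With the GC and length correction 3956 and 1421 genes passed in the last 2 comparisons, and the cause was not tested. The median difference between genotypes was -0.70 with total counts and -0.75 with the correction, against -0.33. Total counts shifted the median of all genes from -0.19, 0.09, 0.25 and -0.04 to 0.05, -0.17, -0.39 and -0.17, and the split of higher and lower genes from 321 and 461, 783 and 1220, 3893 and 2913, and 997 and 1530 to 581 and 300, 481 and 1914, 1385 and 4949, and 763 and 2162. With DESeq2 size factors the last split was 1176 and 1242, and with upper-quartile factors the first was 490 and 336 and the last 1304 and 1090. The split with the correction was 838 and 807 in BLEO-WT against PBS-WT, 2721 and 1235 in BLEO-HPS1 against PBS-HPS1, and 780 and 641 in BLEO-HPS1 against BLEO-WT. Of the 40 ratios of single members, prior counts of 0.5 and 10 moved none beyond its counting interval, and DESeq2 size factors moved 5, upper-quartile factors 21, the correction 37 and total counts 39. Signs changed with total counts for *Scgb1a1* in WT, *Abca3* in *Hps1*-/- and *Ager* in *Hps1*-/- and between the bleomycin libraries, and for both *Ager* ratios also with the correction. The smallest count of a member was 60 reads, for *Lamp3* in BLEO-HPS1, and between the bleomycin libraries the counting intervals of *Epcam* and *Ager* included 0.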

Other observations

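Some secretory airway genes differed between the PBS libraries, where 0 of the 10 members passed 2-fold. Of 9 club and goblet cell genes compared, 5 were at least 2-fold higher and 1 lower in PBS-HPS1 than in PBS-WT. The median log2 ratio was 1.70. Over all genes compared, 2.16% were that much higher and 3.11% that much lower. Of the genes counted as higher, *Scgb3a1*, *Bpifb1* and *Reg3g* reached 1 CPM only in *Hps1*-/- libraries. The filter can thus tilt the count and the median toward PBS-HPS1. *Cyp2f2*, *Aldh1a1* and *Cbr2* stayed under 2-fold, at log2 ratios of 0.65, 0.31 and -0.31. The genes below were picked after their values were seen. *Bpifa1*, a secreted protein of airway epithelium, was at 4.41 CPM in PBS-WT and 14.4 in PBS-HPS1. *Scgb3a2*, a secretoglobin, was at 1.63 and 5.80 CPM, and *Scgb3a1*, another, at 0.218 and 1.95 CPM. *Ltf*, lactoferrin, which neutrophils also make, went the other way, at 70.0 CPM in PBS-WT, 2.87 CPM in PBS-HPS1, 8.11 CPM in BLEO-WT and 13.6 CPM in BLEO-HPS1. *Scgb1a1* itself was at 41.8 and 55.8 CPM in the PBS libraries.

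*Cldn4*, a tight junction protein that injured alveolar epithelium is known to make, was at 0.269 CPM in PBS-WT, 0.0707 CPM in PBS-HPS1, 2.97 CPM in BLEO-WT and 4.32 CPM in BLEO-HPS1. It and *Krt8* were also picked after their values were seen. They come from the list of genes shared by epithelial cells, which split 3 higher and 3 lower in WT and 5 and 5 in *Hps1*-/-. The *Cldn4* log2 ratio of bleomycin to PBS was 3.35 in WT and 5.50 in *Hps1*-/-. These ratios rest on 21 reads in PBS-WT and 7 reads in PBS-HPS1. *Cldn4* reached 1 CPM only in the bleomycin libraries, so the filter kept it through the libraries where it was high. A high ratio was thus partly built in. With 10 reads needed in every library, the list split 2 higher and 3 lower in WT and 4 and 6 in *Hps1*-/-. Other claudins of the list were below 0 in both genotypes, *Cldn3* at -0.81 and -0.62 and *Cldn7* at -0.38 and -0.25. *Krt8*, a keratin, was at 8.15, 11.2, 10.4 and 19.7 CPM.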
